A study of Homo sapiens with 9 samples.

Results

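The 9 genes ASNS, PCK2, PYCR1, ALDH18A1, GPT2, GOT1, GLUD1, CTH and CBS encode enzymes that make asparagine, proline and cysteine, interconvert glutamate, and turn oxaloacetate into phosphoenolpyruvate. They were taken from the deposited count table by their symbols and are 9 of 61853 genes listed. The set was selected on earlier results of the contrast described here, DIS3-sh1 against Scramble. Levels and fold changes of the 9 genes in this contrast are therefore a description, and no p-value is given for them. Each of the 9 had at least 385 counts in every library.

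All samples are of 293T, an established cell line from human embryonic kidney with the SV40 large T antigen. The 3 DIS3-sh1 libraries came from cells labelled as DIS3 knockdown and given an shRNA against DIS3, a catalytic ribonuclease of the nuclear RNA exosome. The 3 Scramble libraries came from cells labelled WT and given a scramble shRNA. RNA was depleted of ribosomal RNA before sequencing. All libraries are of 1 cell line, and the time after shRNA treatment and its way of delivery are not given in the sources used here. A second shRNA, DIS3-sh2, is not analysed here.

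Library totals lay between 19800892 and 21100677 counts in DIS3-sh1 and between 20722775 and 23532148 counts in Scramble. DIS3 itself measured 27.4 ± 0.73 CPM in DIS3-sh1 and 180 ± 5.62 CPM in Scramble (SD, n = 3 each), and no DIS3-sh1 library came near the Scramble range. The 293T markers VIM, KRT8, KRT18, NEFL, NEFM and LIN28B were detected in both groups, while HBB and MYH7 were at 0 and PTPRC, ALB and PECAM1 did not exceed 0.3 CPM in any library. COL1A1, a fibroblast collagen gene chosen like these as a marker of other cells, was present. It measured 25.0 ± 2.17 CPM in DIS3-sh1 and 14.7 ± 0.46 CPM in Scramble (SD, n = 3 each). Among the 293T markers, KRT8, an epithelial keratin gene, measured 32.6 ± 0.81 CPM in DIS3-sh1 and 4.65 ± 0.22 CPM in Scramble. LIN28B went the other way, at 103 ± 2.17 CPM in DIS3-sh1 and 172 ± 5.89 CPM in Scramble. NEFL and NEFM were also lower (log2 fold change -0.25 and -0.14), and VIM and KRT18 higher (0.09 and 0.28). The part of these genes in the results was not tested. Within DIS3-sh1, replicate 1 was unlike the others. Its counts differed from those of replicates 2 and 3 by a mean chi-square of 6.42 and 6.52 per gene, against 1.64 between replicates 2 and 3 and 1.94 to 2.03 among the Scramble libraries.

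As background, glutamate is the hub of these pathways. Its amino group passes to alanine through GPT2 and to aspartate through GOT1, its carbon enters the citric acid cycle through GLUD1, and its carbon skeleton becomes proline through ALDH18A1 and PYCR1. ASNS turns aspartate into asparagine with nitrogen from glutamine, and CBS and CTH carry sulfur from homocysteine to cysteine. Several of these genes, ASNS among them, are known targets of ATF4, the transcription factor that is translated when amino acids run short, and ATF4 binds a composite element shared with C/EBP proteins, the C/EBP-ATF response element (CARE).

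Promoter sequences are shown for 3 of the genes because they set the presence of that element beside the direction of the change. RefSeq promoters on GRCh38.p14 were found for 7 of the 9 genes, 10 promoters in all, and not for PYCR1 and GPT2. The 250 bases before each start were searched on both strands for the CARE, spelled TGATGNAA, and for the cAMP response element (CRE), spelled TGACGTCA (no match of either overlapped one of the other). Each sequence runs 5′ to 3′ on the strand of the gene up to the base before the RefSeq start, and capitals mark the CARE match. GENCODE 29 places the outer end of each of these 3 genes farther upstream, so part or all of each window lies inside its gene model.
ASNS (chr7:97872409-97872658, minus strand): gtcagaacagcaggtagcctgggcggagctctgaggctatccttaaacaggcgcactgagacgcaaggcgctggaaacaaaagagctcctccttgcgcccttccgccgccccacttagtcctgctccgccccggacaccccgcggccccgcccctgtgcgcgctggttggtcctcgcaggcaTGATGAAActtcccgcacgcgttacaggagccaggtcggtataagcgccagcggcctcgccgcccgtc
GOT1 (chr10:99430625-99430874, minus strand): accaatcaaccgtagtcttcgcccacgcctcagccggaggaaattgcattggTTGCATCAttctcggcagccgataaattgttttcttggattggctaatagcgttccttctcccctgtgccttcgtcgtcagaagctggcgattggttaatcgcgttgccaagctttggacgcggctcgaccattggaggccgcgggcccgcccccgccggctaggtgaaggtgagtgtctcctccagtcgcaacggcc
PCK2 (chr14:24094061-24094310, plus strand): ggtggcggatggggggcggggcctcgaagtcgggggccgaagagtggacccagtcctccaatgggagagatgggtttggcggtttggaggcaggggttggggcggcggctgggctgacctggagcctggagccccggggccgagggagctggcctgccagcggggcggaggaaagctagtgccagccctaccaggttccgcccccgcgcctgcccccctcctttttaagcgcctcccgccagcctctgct

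The ASNS match lay on the strand of the gene, 68 to 61 bases before the start. The GOT1 match, on the opposite strand, lay 198 to 191 bases before the start. PCK2, ALDH18A1, GLUD1, CTH and CBS had no CARE match in their windows, nor did the second ASNS promoter, and none of the 10 promoters held the CRE. Of all 35116 RefSeq promoters in the table, 3.14% held a CARE and 1.65% a CRE within 250 bases before the start. ASNS was higher in DIS3-sh1, GOT1 was lower, and PCK2, without a match in this window, showed the widest increase of the 9.

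Values per library are CPM, the reads of a gene scaled to a library of fixed size, after TMM correction for library composition. A gene is called higher or lower where its Benjamini-Hochberg adjusted p over all 19591 genes tested was under 0.05 in edgeR's quasi-likelihood test. All 9 genes passed the expression filter. Of them, 6 were called higher in DIS3-sh1, 2 lower and 1 was not called. Across all tested genes, 34.5% were called higher and 32.6% lower, 67.0% together, and the groups did not overlap for 69.8%. They did not overlap for 8 of the 9 genes. The median log2 fold change was 0.18 over the 9 genes and 0.02 over all genes tested. In bulk RNA, a change in the share of cells that express a gene and a change in RNA per cell cannot be told apart.

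PCK2, the mitochondrial phosphoenolpyruvate carboxykinase, measured 130.8, 121.9 and 116.5 CPM in the DIS3-sh1 libraries and 20.2, 20.4 and 18.8 CPM in the Scramble libraries. Every DIS3-sh1 library was far above every Scramble library. It averaged 123 ± 7.22 CPM in DIS3-sh1 and 19.8 ± 0.86 CPM in Scramble (SD, n = 3 each). This is 6.20-fold, or 2.63 ± 0.05 (SE) in log2 fold change. By size of increase PCK2 stood at place 133 of 19591 genes, and 0.679% of the genes tested had as large an increase or a larger one. The gene (ENSG00000100889.12) spans 24094053 to 24110598 of chromosome 14 in hg38, on the plus strand. It overlaps NRL on the opposite strand, which had between 10 and 44 counts in a library.

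ASNS, asparagine synthetase, measured 257.3, 256.5 and 260.0 CPM in the DIS3-sh1 libraries and 96.0, 98.5 and 97.8 CPM in the Scramble libraries. The groups stood far apart and the libraries within each were close, with standard deviations of 0.7% of the mean in DIS3-sh1 and 1.33% in Scramble. ASNS was thus 2.65-fold higher, a log2 fold change of 1.41 ± 0.03 (SE). ASNS (ENSG00000070669.17) spans 97852118 to 97872542 of chromosome 7, on the minus strand. Its counts were fractional in all 6 libraries. An overlapping gene on the same strand that shares exons with it, ENSG00000284707, carried nearly the same level, 245.8, 242.3 and 246.9 CPM in DIS3-sh1 and 93.3, 93.9 and 94.9 CPM in Scramble. How reads of the shared exons were divided between both genes is not stated, so the level of either is uncertain. When ASNS, ENSG00000284707 and 4 ASNS pseudogenes were summed before the fit, the level was 545.3, 536.0 and 543.9 CPM in DIS3-sh1 and 197.1, 198.7 and 199.2 CPM in Scramble. The fitted log2 fold change of the sum was 1.45 ± 0.03 (SE), next to 1.41 for ASNS alone.

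CTH, cystathionine gamma-lyase, which releases cysteine from cystathionine, measured 38.7, 45.1 and 45.8 CPM in DIS3-sh1 and 19.9, 19.8 and 18.9 CPM in Scramble. The groups did not overlap, and the lowest DIS3-sh1 value was that of replicate 1. CTH was 2.21-fold higher, with a log2 fold change of 1.14 ± 0.07 (SE), and of 1.22 without that replicate. CBS, cystathionine beta-synthase, which makes cystathionine from homocysteine and serine, changed less. It measured 307.7, 277.8 and 290.4 CPM in DIS3-sh1 and 227.5, 218.7 and 226.9 CPM in Scramble, a log2 fold change of 0.38 ± 0.03 (SE). Here replicate 1 was the highest DIS3-sh1 library, and no DIS3-sh1 library fell into the Scramble range.

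CBS (chromosome 21, 43053191 to 43076943, minus strand) has an annotated near-identical copy in GRCh38, CBSL, on the same chromosome. CBSL measured 57.2 ± 1.40 CPM in DIS3-sh1 and 48.1 ± 0.49 CPM in Scramble (SD, n = 3 each). CBS held 74.5% to 75.5% of the per-length sum of the pair in DIS3-sh1 and 72.9% to 73.7% in Scramble, and reads cannot be assigned to either copy with certainty. With both summed, CBS and CBSL had a log2 fold change of 0.36 ± 0.03 (SE). CTH is on the plus strand of chromosome 1, from 70411218 to 70439851.

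**Figure D1:**
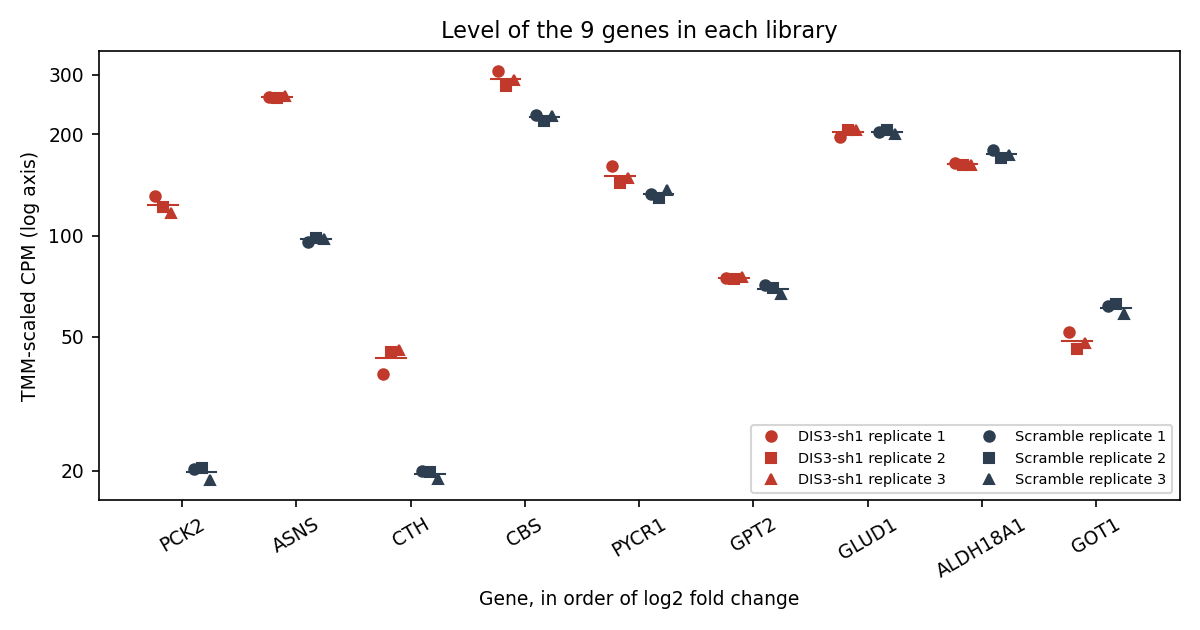
Level of each of the 9 genes in every library, as TMM-scaled CPM on a log axis, with DIS3-sh1 left of Scramble and marker shape for the replicate; horizontal lines are group means, n = 3 each. PCK2, ASNS and CTH show the widest gaps between DIS3-sh1 and Scramble, and the GLUD1 libraries of the groups overlap.

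The proline pair showed small differences of opposite sign. PYCR1, the mitochondrial reductase that makes proline from pyrroline carboxylate, measured 160.9, 143.6 and 147.7 CPM in DIS3-sh1 and 133.2, 129.1 and 136.6 CPM in Scramble. All DIS3-sh1 libraries were above all Scramble libraries, with replicate 1 the highest. PYCR1 had a log2 fold change of 0.18 ± 0.04 (SE), and of 0.135 without DIS3-sh1 replicate 1. ALDH18A1, the synthase that makes the precursor of pyrroline carboxylate from glutamate, measured 164.5, 161.8 and 162.2 CPM in DIS3-sh1 and 179.3, 170.2 and 174.1 CPM in Scramble. Its log2 fold change was -0.10 ± 0.03 (SE). The groups did not overlap, and the call was lost with upper-quartile scaling (log2 fold change -0.020, with the median of all genes shifted up by 0.08) and without Scramble replicate 1 (-0.085). PYCR1 (chromosome 17, 81932384 to 81942412) and ALDH18A1 (chromosome 10, 95605929 to 95656706) both lie on the minus strand.

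Of the glutamate enzymes, GPT2 and GLUD1 differed little and GOT1 was lower. GPT2, the mitochondrial alanine aminotransferase, measured 74.9, 74.4 and 75.4 CPM in DIS3-sh1 and 71.2, 69.8 and 67.3 CPM in Scramble. The groups lay close without overlap, at a log2 fold change of 0.11 ± 0.04 (SE). Its call was lost with DESeq2, without an expression filter and without any of 3 single libraries (Scramble replicate 2, Scramble replicate 3 or DIS3-sh1 replicate 3), with log2 fold changes of 0.081 to 0.11. GLUD1, glutamate dehydrogenase, measured 196.5, 205.1 and 205.9 CPM in DIS3-sh1 and 203.2, 206.2 and 199.9 CPM in Scramble. The groups overlapped, and the log2 fold change was -0.004 ± 0.03 (SE). With upper-quartile scaling its log2 fold change was 0.076 and it was called higher, a move as large as the 0.08 by which that scaling shifted the median of all genes.

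GOT1, the cytosolic aspartate aminotransferase, was the member with the widest decrease. It measured 51.7, 46.1 and 47.9 CPM in DIS3-sh1 and 62.0, 62.4 and 58.6 CPM in Scramble, with no overlap. Its log2 fold change was -0.33 ± 0.05 (SE) and ran from -0.37 to -0.25 over all settings tried. GOT1 (chromosome 10, 99396870 to 99431569, minus strand) shares exon sequence with GOT1-DT, a divergent transcript on the opposite strand. GOT1-DT went the other way, at 11.8 ± 1.41 CPM in DIS3-sh1 and 6.24 ± 0.57 CPM in Scramble (SD, n = 3 each; log2 fold change 0.93 ± 0.11, edgeR quasi-likelihood test, adjusted p = 1.31e-08). GLUD1 (chromosome 10, 87050486 to 87094866, minus strand) likewise shares exon sequence with SHLD2 on the opposite strand, which fell by 0.76 on the log2 scale (SE 0.06). Whether counting used the strand is not given, and reads from such partners cannot be told apart with certainty. GPT2 spans 46884378 to 46931297 of chromosome 16, on the plus strand.

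**Figure D2:**
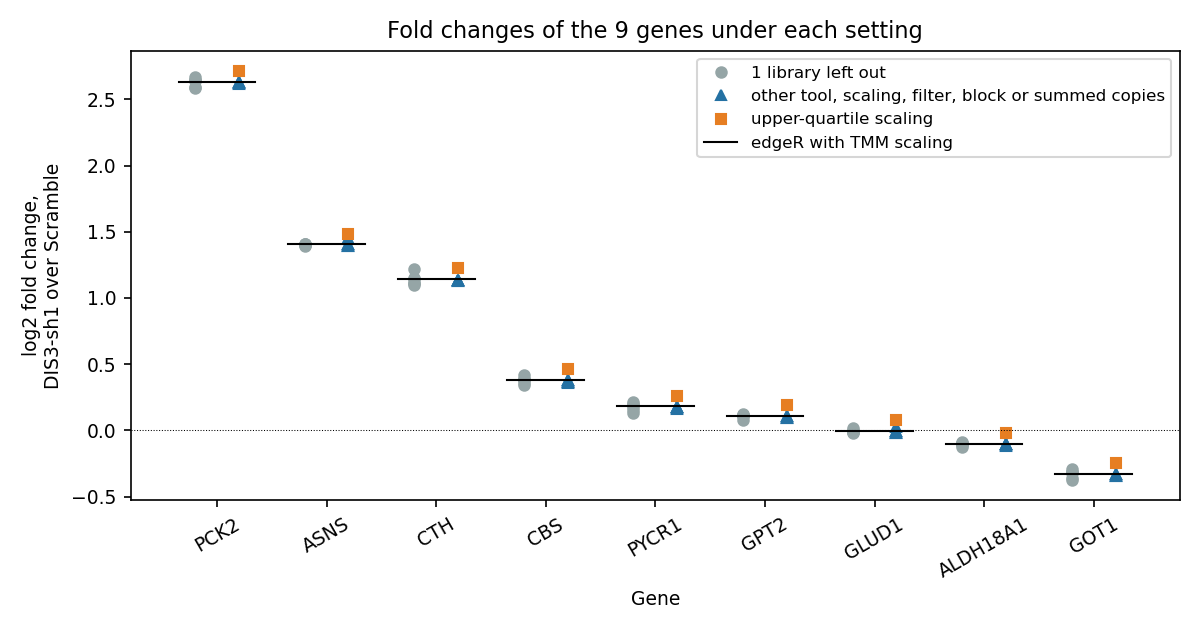
log2 fold change of each of the 9 genes, DIS3-sh1 over Scramble, under the fit used in the text (black lines) and under the alternatives: 1 library left out (grey circles), another tool, filter, scaling or model (blue triangles) and upper-quartile scaling (orange squares). PCK2, ASNS, CTH, CBS, PYCR1 and GPT2 stayed above 0 throughout. GOT1 and ALDH18A1 stayed below 0, and GLUD1 lay on either side of 0.

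Levels were compared between genes as CPM per kilobase of annotated exon (GENCODE 29). In Scramble the order was GLUD1 (57.7 ± 0.90), ALDH18A1 (46.3 ± 1.21), PYCR1 (46.1 ± 1.30), CBS (33.1 ± 0.73), ASNS (21.9 ± 0.29), GOT1 (18.1 ± 0.63), GPT2 (10.9 ± 0.31), CTH (8.10 ± 0.24) and PCK2 (4.73 ± 0.21; SD, n = 3 each). The libraries of ALDH18A1 and PYCR1 overlapped, and no other neighbours in that order did. In DIS3-sh1 the order opened with ASNS (57.9 ± 0.41) and GLUD1 (57.5 ± 1.49), whose libraries overlapped. PYCR1 (52.2 ± 3.12), ALDH18A1 (43.2 ± 0.39), CBS (43.0 ± 2.21), PCK2 (29.4 ± 1.72), CTH (17.9 ± 1.63), GOT1 (14.4 ± 0.85) and GPT2 (11.8 ± 0.08) came next, with overlap between ALDH18A1 and CBS. PCK2 was the lowest of the 9 per length in Scramble and the sixth in DIS3-sh1. On its own counts, ASNS was the fifth in Scramble and level with GLUD1 in DIS3-sh1. The order leaves out the counts of ENSG00000284707, which shares exons with ASNS, and of CBSL, the copy of CBS. The places of ASNS and CBS are therefore uncertain.

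Paralogs of the 9 genes differed in their direction. PCK1, the cytosolic carboxykinase, had 64 counts over the 3 DIS3-sh1 libraries and 9 over the 3 Scramble libraries, and PCK2 held 99.2% to 99.9% of the per-length sum of the pair in every library. ASNSD1, an asparagine synthetase domain protein gene, averaged 39.1 ± 2.33 CPM over the DIS3-sh1 libraries and 77.3 CPM, with all 3 values within 76.6 to 78.4 CPM, over the Scramble libraries (n = 3 each; SD for DIS3-sh1; log2 fold change -0.98 ± 0.05, edgeR quasi-likelihood test, adjusted p = 1.8e-17). Its libraries were on the opposite side of those of ASNS, with no overlap between groups for either gene.

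Among the reductases of proline synthesis, PYCR3, the cytosolic form, fell by 0.73 on the log2 scale (SE 0.07, edgeR quasi-likelihood test, adjusted p = 3.06e-10), with 17.8, 15.8 and 16.5 CPM in DIS3-sh1 and 26.6, 26.8 and 29.8 CPM in Scramble. The groups did not overlap, and PYCR3 lay on the opposite side of 0 from PYCR1.

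GOT2, the mitochondrial aspartate aminotransferase, measured 260.1, 269.4 and 256.5 CPM in DIS3-sh1 and 249.1, 248.6 and 243.1 CPM in Scramble. GOT2 was called higher at a log2 fold change of 0.085 ± 0.029 (edgeR quasi-likelihood test, adjusted p = 0.0099). It was no longer called in DESeq2 (adjusted p = 0.0736), nor when Scramble replicate 3 (0.0894) or replicate 2 of DIS3-sh1 (0.0719) was left out. GOT1 made up 16.05%, 17.3% and 18.2% of the per-length sum of the pair in DIS3-sh1 and 21.2%, 21.8% and 21.9% in Scramble. GLUD2, an intronless relative of GLUD1, averaged 12.7 ± 0.80 CPM in DIS3-sh1 and 11.5 ± 0.62 CPM in Scramble and was not called (adjusted p = 0.214), though it was with upper-quartile scaling (log2 fold change 0.21, adjusted p = 0.0446). GPT, the cytosolic partner of GPT2, had 0 counts in DIS3-sh1, which allows up to 3 counts per library, and 6 over the 3 Scramble libraries, and GOT1L1 had 0 counts in all 6.

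The pseudogene ASNSP1 measured 41.7, 36.7 and 36.9 CPM in DIS3-sh1 and 7.15, 5.53 and 5.82 CPM in Scramble. Its log2 fold change of 2.63 ± 0.09 was wider than that of ASNS, and this difference was not tested. How reads common to ASNSP1 and ASNS were counted is not given, so the value of either is uncertain.

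**Figure D3:**
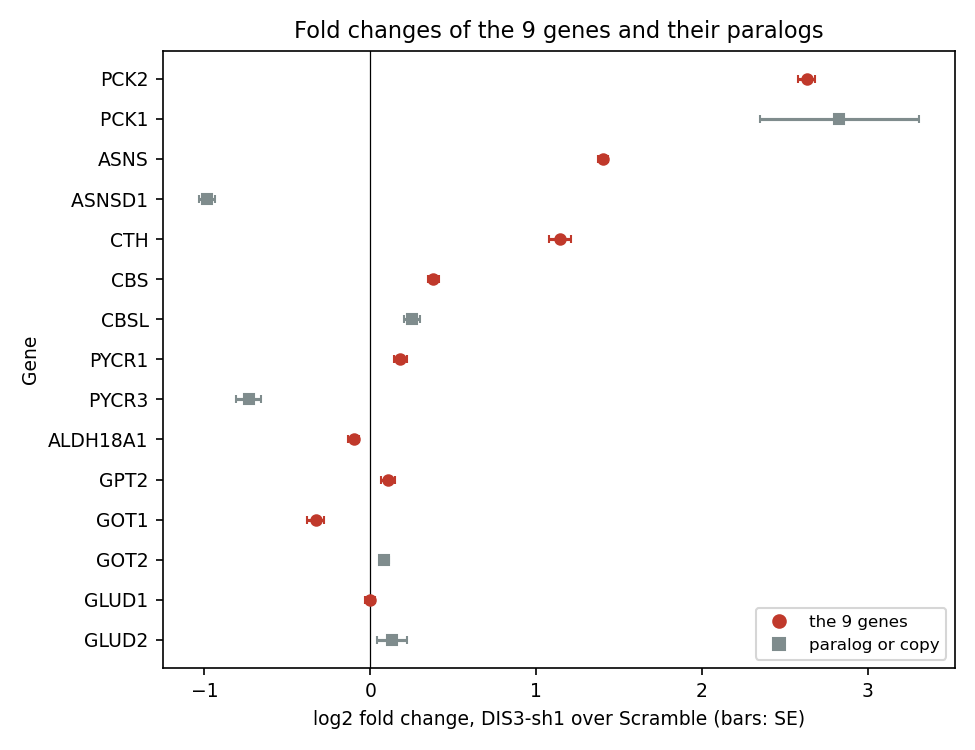
log2 fold change with its SE, DIS3-sh1 over Scramble, of the 9 genes (circles) and of their paralogs or copies (squares). ASNSD1 and PYCR3 lie below 0 while ASNS and PYCR1 lie above it; the PCK1 value rests on 9 counts in Scramble.

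Other genes of the same pathways went in both directions. The 5 enzyme lists were drawn from textbook knowledge, but with earlier results of these data known. Of their 86 tested genes, 34 rose and 43 fell in DIS3-sh1, and 9 were not called (edgeR quasi-likelihood test). Their median log2 fold change was -0.12, against 0.02 over all tested genes. As shares of the tested list genes these are 39.5% higher and 50% lower, beside 34.5% and 32.6% of all genes. With a list of 18 regulators of the stress response added, 47 of 104 rose (45.2%) and 46 fell (44.2%), with a median of 0.004. Genes named below from each list include up to 4 with the smallest p. The p-values printed for them are therefore a description and not an independent test.

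In the asparagine and aspartate list, 7 rose and 7 fell of 15 tested (46.7% each, beside 34.5% and 32.6% of all tested genes). ASS1, which joins citrulline to aspartate, averaged 112 ± 2.25 CPM in the DIS3-sh1 libraries and 34.6 ± 3.12 CPM in the Scramble libraries, a rise of 1.70 ± 0.05 in log2 (SD, n = 3 each; edgeR quasi-likelihood test, adjusted p = 3.58e-23). CAD, the enzyme that opens pyrimidine synthesis with glutamine and aspartate, rose by a log2 fold change of 0.49 ± 0.03. ADSS2, adenylosuccinate synthase, fell by 0.62. With DESeq2, and likewise without Scramble replicate 3, 4 genes of this list were called higher. Over all genes, too, fewer were called higher under each of these settings than in the fit used here. Whether the drop in this list differed from that over all genes was not tested.

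In the proline and ornithine list, 6 rose and 8 fell of 15 tested, with a median of -0.28. These are 40.0% and 53.3%, beside 34.5% and 32.6% of all tested genes. ODC1, ornithine decarboxylase, measured 154.9, 162.4 and 160.3 CPM in DIS3-sh1 and 331.3, 325.1 and 329.9 CPM in Scramble (log2 fold change -1.05 ± 0.03, edgeR quasi-likelihood test, adjusted p = 6.44e-24). AMD1, an adenosylmethionine decarboxylase (-0.85), SRM, spermidine synthase (-0.52), and SMS, spermine synthase (-0.55), also fell. Among enzymes next to PYCR1 and ALDH18A1, named after their values were seen, OAT, ornithine aminotransferase, fell by 0.41. ALDH4A1 and PRODH, which break proline down, rose by log2 fold changes of 0.72 ± 0.11 and 1.95 ± 0.27, with PRODH at a low level, 2.84 ± 0.74 CPM in DIS3-sh1 and 0.73 ± 0.23 CPM in Scramble.

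In the glutamate and glutamine list, 6 rose and 11 fell of 20 tested, with a median of -0.20. These counts stand beside 34.5% higher and 32.6% lower of all tested genes, with a median of 0.02. With DESeq2, 3 genes of this list were called higher, a setting that also called fewer genes higher over all genes. PSAT1, the aminotransferase of serine synthesis, averaged 149 ± 1.35 CPM in DIS3-sh1 and 265 ± 6.10 CPM in Scramble (log2 fold change -0.83 ± 0.03, edgeR quasi-likelihood test, adjusted p = 4.92e-21). CTPS1, a CTP synthase (-0.72), GCLM, the modifier subunit of the glutathione-making ligase (-1.23 ± 0.05), and GLUL, glutamine synthetase (-0.55), also fell.

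In the methionine and transsulfuration list around CBS and CTH, 8 rose and 6 fell of 16 tested. Of all tested genes, 34.5% were called higher and 32.6% lower. MAT2A, which makes S-adenosylmethionine, fell by 1.19 on the log2 scale (SE 0.03, edgeR quasi-likelihood test, adjusted p = 2.32e-25), with 146.2, 150.4 and 145.4 CPM in DIS3-sh1 and 338.0, 336.4 and 333.1 CPM in Scramble. AHCY, which makes the homocysteine that CBS uses, rose by a log2 fold change of 0.41 ± 0.03. SLC7A11, the cystine transporter subunit, rose by 0.54 ± 0.04 on the log2 scale. CHAC1, a glutathione-degrading enzyme gene, measured 17.5 ± 0.62 CPM in DIS3-sh1 and 3.74 ± 0.89 CPM in Scramble (SD, n = 3 each; log2 fold change 2.22 ± 0.12, adjusted p = 1e-16).

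In the list of phosphoenolpyruvate, pyruvate and malate enzymes around PCK2, 8 rose and 11 fell of 21 tested. That is 38.1% and 52.4%, beside 34.5% and 32.6% of all tested genes. ENO1, the enolase that makes phosphoenolpyruvate in glycolysis, averaged 1043 ± 27.8 CPM in DIS3-sh1 and 1940 ± 15.4 CPM in Scramble (log2 fold change -0.90 ± 0.02, edgeR quasi-likelihood test, adjusted p = 4.6e-25). PKM, pyruvate kinase, which uses phosphoenolpyruvate, fell by 0.72. PDK3, a pyruvate dehydrogenase kinase (-1.47 ± 0.04), and ACLY, ATP citrate lyase (-0.78 ± 0.03), fell as well. The other kinases of that family, PDK1, PDK2 and PDK4, went the other way, with log2 fold changes of 0.45 ± 0.05, 0.66 ± 0.06 and 0.94 ± 0.15. They were named after their values were seen, as were PC and ENO2. PC, pyruvate carboxylase, which makes oxaloacetate, fell by 0.46. ENO2, the neuronal enolase, had a log2 fold change of 2.26 ± 0.10.

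The list of integrated stress response regulators was likewise drawn up with earlier results of these data known. Of its 18 tested genes, 13 rose (72.2%) and 3 fell (16.7%), with a median log2 fold change of 0.45. Of all tested genes, 34.5% were higher and 32.6% lower, with a median of 0.02. ATF3, a stress-induced transcription factor, rose by a log2 fold change of 1.20 ± 0.05, SESN2, a leucine sensor, by 0.80 ± 0.04, and CEBPG, a partner of ATF4, by 0.64 ± 0.04 (edgeR quasi-likelihood test, adjusted p = 3.85e-19, 7.98e-18 and 2.67e-15). EIF2S1, the alpha subunit of the initiation factor that the stress kinases phosphorylate, fell by 0.65. ATF4 mRNA, named after its values were seen like DDIT3 and TRIB3, differed little. It measured 586.1, 596.4 and 581.5 CPM in DIS3-sh1 and 560.8, 546.2 and 566.5 CPM in Scramble. Its log2 fold change was 0.08 ± 0.02, and it was called higher. That call was lost without Scramble replicate 2 (log2 fold change 0.056). ATF4 is controlled mainly at translation, which these libraries do not measure. DDIT3, which encodes the stress factor CHOP, and TRIB3, which encodes a pseudokinase, were higher by 1.55 ± 0.12 and 0.81 ± 0.08 in log2. ATF5 and PPP1R15B, the genes of this list that fell besides EIF2S1, had log2 fold changes of -0.74 ± 0.11 and -0.29 ± 0.03.

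**Figure D4:**
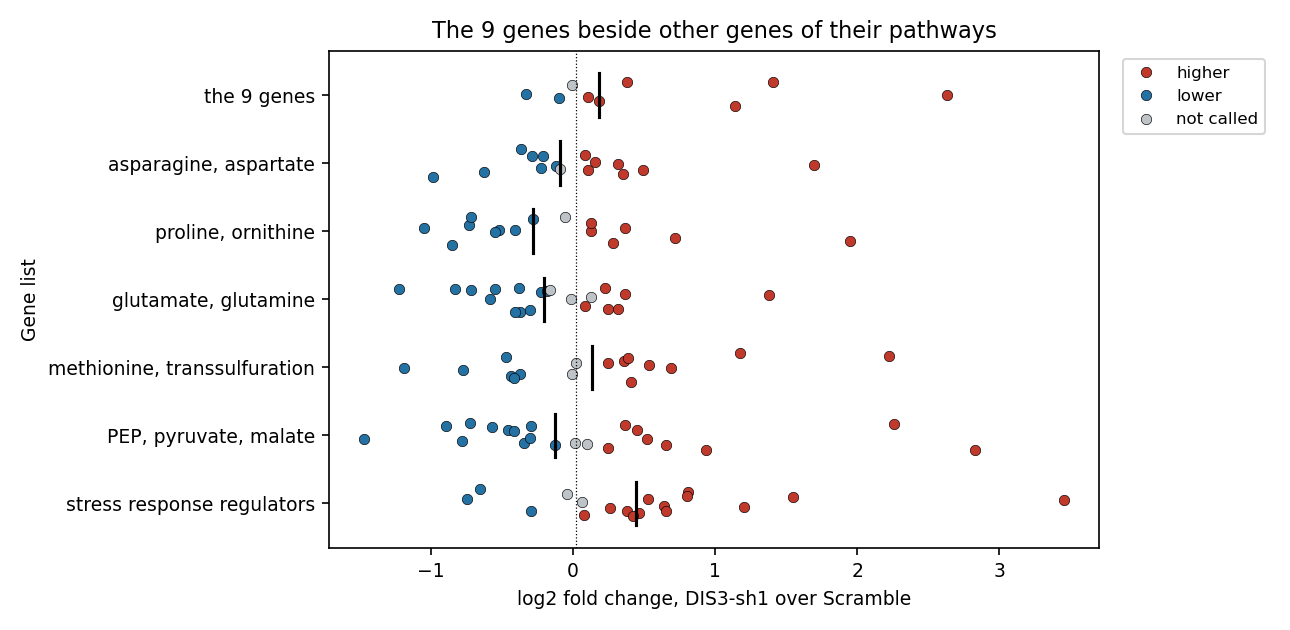
log2 fold change, DIS3-sh1 over Scramble, of the 9 genes and of the tested genes of 5 enzyme lists and 1 list of stress response regulators; red is called higher, blue lower and grey not called, vertical bars the median of each row, and the dotted line the median of all tested genes. The 5 enzyme lists spread on either side of 0, and the stress response regulators have the highest median, 0.45.

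The genes whose profile lay nearest to a member were found, among 10878 genes that averaged 10 CPM or more, by the Euclidean distance between mean-centred log2 CPM over the 6 libraries. Nearest to PCK2 were ASNSP1 (distance 0.27), KRT8 (0.28), a keratin gene, BHLHE40 (0.35), ENSG00000213963 (0.37) and NGEF (0.40). Nearest to ASNS was ENSG00000284707 (0.038), the gene that shares its exons, followed by NSMCE4A (0.10), FNDC3A (0.11), ARPIN (0.11) and PHC1 (0.12). Nearest to GPT2 were COPA, a coatomer subunit gene (0.032), RPL26 (0.041), MCFD2 (0.041), EPRS1 (0.042) and ENSG00000282278 (0.043). None of the other 8 genes of the set was among the 5 nearest of these 3 members. With libraries of only DIS3-sh1 and Scramble, this distance follows mainly the fold change between them. The neighbours of PCK2 had log2 fold changes of 2.375 to 2.83, those of ASNS 1.327 to 1.459 and those of GPT2 0.084 to 0.126. The absence of other members among them therefore adds nothing to the fold changes given above.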

How the data were processed

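The deposited table holds expected counts, that is, estimated reads per Ensembl gene that need not be whole, for single libraries. The submitters' processing notes name HISAT2 2.1.0 and Bowtie2 2.3.5, featureCounts 1.5.1, SAMtools and the build hg38. Which annotation was used, and whether strand was, is not given in the sources used here. Of 9 per-sample columns, 6 matched sample labels, and the other 3 were not used, so the planned DIS3-sh2 results were not computed and the fit holds 6 libraries. The series' design text calls the samples biological replicate sets.

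Symbols came from a gene name table, and from GENCODE 29 for CBSL. Counts were rounded and tested in edgeR 4.0.16 (R 4.3.3): TMM scaling, expression filter by group, group as the only term, robust quasi-likelihood F-test, two-sided, Benjamini-Hochberg adjustment over 19591 genes. SE is the absolute log2 fold change over the square root of F. The fit was tested on simulated data before use. DESeq2 1.42.0 and limma 3.58.1 served as alternatives.

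The members and the pathway lists were chosen with earlier results of these data known. Named genes are the members, up to 4 per list with the smallest p, paralogs and copies of members, DIS3, and 5 profile neighbours of PCK2, ASNS and GPT2. Another 11 pathway genes, ATF5 and PPP1R15B, and the genes that overlap members were named after their values were seen. Some genes of the lists are counted but not reported here by name. Libraries were not treated as paired.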

Additional observations from a re-analysis of the deposited data

How the results depend on the processing

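Of the 9 genes, PCK2, ASNS, CTH, CBS, PYCR1 and GOT1 kept their direction and their call under every alternative run, 12 or 13 for each gene. Upper-quartile scaling shifted the median of all genes up by 0.08 in log2 and called 7745 genes higher (39.5%) and 5471 lower (27.9%), and of the 9 genes 7 higher and 1 lower. GLUD1 moved by as much as that median, to 0.076 against -0.004 with TMM; ALDH18A1 kept its sign at -0.020 and lost its call. GLUD1 summed with its copies gave 0.022, and with single libraries left out it ran from -0.022 to 0.021. The count of the 9 genes called lower was 1 to 2 with single libraries left out. Apart from that shift, the causes were not tested. DESeq2 called 4 genes of the asparagine and aspartate list and 3 of the glutamate and glutamine list higher. With single libraries left out, the first list had 4 to 7 called higher. DESeq2 and each fit with a single library left out also called fewer genes higher over all genes than the fit used. Whether the lists lost more calls than all genes did was not tested. Whether same-numbered libraries of both groups were prepared together is not given in the sources used here. Their deviations from the group means correlated at 0.058, 0.032 and -0.002 across 16782 genes. Libraries of unlike number correlated at -0.053 to 0.025. With 3 libraries a group, correlations this small cannot show whether the libraries were paired. With the replicate number as a block, 6769 genes were higher and 6397 lower, against 6751 and 6379 without it, and the counts for the 9 genes were 6 and 2 in either fit. The fit with limma-voom and the sum over the ASNS copies were chosen after seeing the data. A fit restricted to the groups compared is the same as the one used, and alternatives for DIS3-sh2 were not run. At these depths the SE of a member's log2 fold change was 0.03 to 0.07, and scaling alone moved the median by 0.08. Differences of these sizes or smaller are not resolved. The calls of GPT2 (log2 fold change 0.11) and ALDH18A1 (-0.10) were lost under some alternatives.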
